A study of Mus musculus with 6 samples.

Results

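The 8 genes described here are the orphan nuclear receptors Nr4a1, Nr4a2 and Nr4a3, the zinc finger factors Egr1, Egr2 and Egr3, and the corepressors Nab1 and Nab2 that bind EGR proteins. They were chosen by symbol, with earlier results of these data known. Each symbol matched 1 of the 39179 gene identifiers in every file, and all 8 passed the filter on low counts. In mouse regulatory T cells (Tregs) made in culture with DEL-1-Fc, Nr4a3 was lower and Egr2 and Egr3 were higher than in cells made with Fc. Nr4a1, Nr4a2, Egr1, Nab1 and Nab2 did not pass the test. The cells began as naive CD4+ T cells from the spleen of wild-type C57BL/6 mice aged 6 weeks. Both groups were cultured for 3 days with IL-2 (40 ng/ml), TGF-β1 (5 ng/ml), anti-CD28 (1 µg/ml) and coated anti-CD3 (2 µg/ml, read from a garbled unit in the labels). DEL-1 is a secreted protein that binds integrins, and DEL-1-Fc is its fusion to an antibody Fc part. The 3 DEL-1-Fc libraries were compared with 3 libraries from cultures given Fc alone.

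Nr4a and Egr genes are immediate-early genes, transcribed soon after a T cell receptor signal without the need for new protein. Calcium, calcineurin and MEF2 carry the signal to Nr4a1, while ERK and the serum response factor carry it to Egr genes, and NFAT also drives Egr2 and Egr3. NR4A proteins bind DNA without a known natural ligand and help to maintain Foxp3, the factor that defines Tregs. EGR2 and EGR3 are linked to T cell anergy and to restraint of effector cytokines. NAB1 and NAB2 dock on EGR1, EGR2 and EGR3 and repress through the NuRD complex, and Nab2 is itself an EGR target, which forms a feedback loop.

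The libraries held 33364166 to 61967687 counts, and DEL-1-Fc replicate 1 was the shallowest. On the first principal component of log2 CPM (44% of the variance) it stood at 47.7, and DEL-1-Fc replicates 2 and 3 at 14.3 and 12.8. The Fc libraries stood at -27.5 to -22.7. It also stood apart from the other DEL-1-Fc libraries on the second component (23.3%). Calls of the named genes that change without it are therefore given beside them. Nothing in the labels says that replicates came from separate mice or cultures. The p-values therefore set the difference between groups only against the spread of libraries within a group, and that spread may be technical. Markers of CD4 T cells and Tregs, among them Cd3e, Cd4 and Foxp3, summed to 5078 to 5427 CPM (counts divided by the TMM-scaled library size, brought to a common total) in Fc and 5388 to 5715 CPM in DEL-1-Fc. The highest sum for any of 9 lists of other cell types was 12.8 CPM, for the 2 CD8 T cell genes, of which 1 was called higher (10.1 to 10.4 CPM in sum in Fc, 11.9 to 12.8 CPM in DEL-1-Fc). The 5 dendritic cell genes summed to 8.91 to 9.02 CPM in Fc and to 6.51 to 7.06 CPM in DEL-1-Fc, nearly all of it Zbtb46, the 1 gene of the list tested, which was called lower. Siglech was at 0. Their part in the results below was not tested. In bulk RNA, fewer cells with a transcript and less of it per cell cannot be told apart.

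Promoter sequence is shown for the 3 Nr4a genes, which carry the same motif though only Nr4a3 passed the test, and for Egr2, which has a further one. The difference in response between members was not tested. The windows come from RefSeq on GRCm38.p6 and run from 250 bases before to 50 bases after a start site. They were found for 6 of the 8 members (Egr1 and Egr3 are not in the table). What is printed is the part before the start that no GENCODE M21 exon covers, read 5′ to 3′ on the gene's strand. Capitals mark 2 motifs searched on both strands: TGACG, or CGTCA on the other strand, which is the core of the cyclic AMP response element (CRE), and the CArG box, the core of the serum response element. These motifs share no letters in the stretches shown.
Nr4a1, chr15:101266596-101266845, plus strand: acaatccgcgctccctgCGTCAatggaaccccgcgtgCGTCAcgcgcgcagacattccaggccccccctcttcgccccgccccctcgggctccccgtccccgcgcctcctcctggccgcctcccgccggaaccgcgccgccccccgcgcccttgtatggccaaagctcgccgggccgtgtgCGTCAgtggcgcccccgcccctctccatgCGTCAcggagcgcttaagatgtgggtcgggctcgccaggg
Nr4a2, chr2:57124004-57124253, minus strand: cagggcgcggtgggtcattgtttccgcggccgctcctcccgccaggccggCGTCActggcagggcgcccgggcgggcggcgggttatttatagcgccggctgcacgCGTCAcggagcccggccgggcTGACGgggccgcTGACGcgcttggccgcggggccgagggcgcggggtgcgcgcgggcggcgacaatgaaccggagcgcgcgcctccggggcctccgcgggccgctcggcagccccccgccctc
Nr4a3, chr4:48045055-48045152, plus strand: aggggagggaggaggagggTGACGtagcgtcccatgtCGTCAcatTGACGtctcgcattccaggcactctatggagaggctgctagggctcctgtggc
Egr2, chr10:67537619-67537868, plus strand: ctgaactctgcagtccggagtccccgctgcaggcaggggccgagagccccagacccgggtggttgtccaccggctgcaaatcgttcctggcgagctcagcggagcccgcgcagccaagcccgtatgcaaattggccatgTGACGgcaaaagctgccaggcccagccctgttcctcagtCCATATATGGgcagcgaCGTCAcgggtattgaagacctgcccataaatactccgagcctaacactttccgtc

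Each Nr4a window of 300 bases held 4 CRE cores, of which the exon-free stretch shows 4 for Nr4a1, 4 for Nr4a2 and 3 for Nr4a3. Of 32817 promoter windows of that length, 20.8% held at least 1 such core and 1.03% held 3 or more. Egr2 has 5 windows in the table, and the one shown, chosen for its motifs, held 2 CRE cores and 1 CArG box, a motif in 1.63% of all windows. The window starting at 67535249 held neither motif and that starting at 67537316 held 1 CArG box and 0 CRE cores, while the other 2 overlap the one shown and held the same motifs. The EGR site GCGNGGGCG occurred 3 times in the Nab1 window and once each in those of Nr4a1 and Nr4a2, against 5.56% of windows with at least 1. The Nab2 window held 0 EGR sites. The EGR motif can overlap the GC boxes that Sp1 binds. The NR4A site AAAGGTCA was in none of the member windows and in 1.51% of all windows. The AP-1 site TGANTCA was likewise in none of them and in 7.81% of all windows. The NFAT core GGAAAA was in only 1 member window, that of Egr2 starting at 67537316, and in 23.3% of all windows. These matches describe letters in a window and are not measurements of binding.

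Of the 8 members, 2 were called higher and 1 lower in DEL-1-Fc by edgeR's quasi-likelihood test at an adjusted p under 0.05. That is 37.5%, against 12.6% of all 14928 genes tested (6.4% higher and 6.22% lower). Since the members were chosen with earlier results of these data known, this share is not independent evidence. The same 3 members were those whose groups did not overlap in CPM, which held for 34.8% of all genes tested (17.3% with DEL-1-Fc higher and 17.5% with it lower). The members' median log2 fold change was 0.088 and that of all genes 0.0079.

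**Figure D1:**
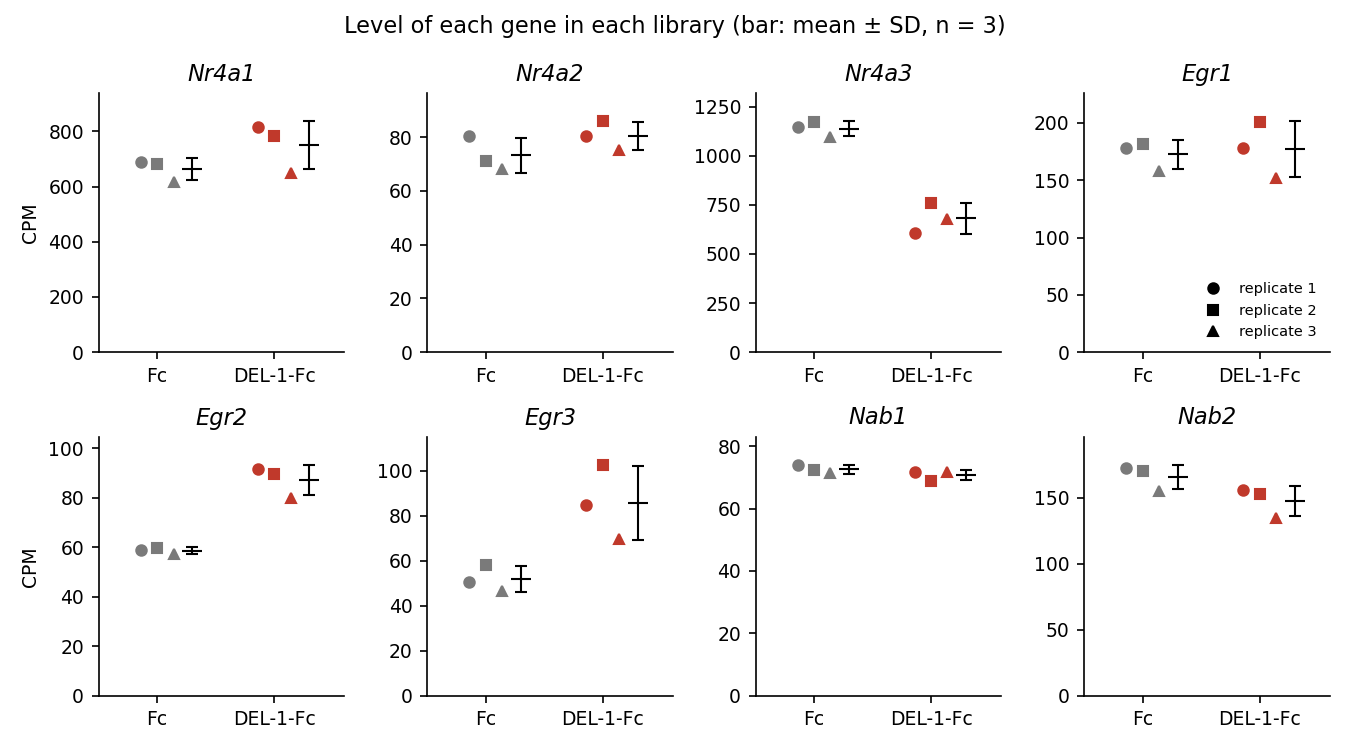
CPM of each of the 8 genes (vertical axes, each from 0) in the 3 Fc and 3 DEL-1-Fc libraries, with symbols for the replicate number and a bar for the mean ± SD. The groups are apart for Nr4a3, Egr2 and Egr3, and they overlap for the other 5 genes.

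Nr4a3, which encodes NOR1, stood at 1145, 1171 and 1095 CPM in Fc replicates 1, 2 and 3, against 605.9, 759.8 and 677.4 CPM in those of DEL-1-Fc. Every DEL-1-Fc library lay below every Fc library. The mean was 1.67-fold lower, at 681.1 ± 77 CPM against 1137 ± 38.7 CPM in Fc (n = 3, SD; log2 fold change -0.74, SE 0.0904, edgeR adjusted p = 0.00107). Of all genes tested, 7.92% had a larger absolute change. Without DEL-1-Fc replicate 1 the log2 fold change was -0.66 (edgeR adjusted p = 0.000105), and over all 15 alternatives it ranged from -0.83 to -0.66. Nr4a3 (ENSMUSG00000028341) spans 48045153 to 48086447 on the plus strand of chromosome 4 (GRCm38, as are all coordinates here) and overlaps no other annotated gene.

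Nr4a1, which encodes NUR77 and is widely used as a reporter of T cell receptor signal strength, did not pass the test. The Fc libraries held 689.1, 680.9 and 616.3 CPM, the DEL-1-Fc libraries 815.4, 783 and 650.5 CPM. The lowest DEL-1-Fc library lay within the Fc range. Its log2 fold change was 0.18 (SE 0.0958, edgeR adjusted p = 0.27), and it stayed above 0 in all 15 alternatives, from 0.11 to 0.27. Nr4a2, which encodes NURR1, stood at 80.4, 71.2 and 68 CPM with Fc, against 80.4, 86 and 75.4 CPM with DEL-1-Fc. These ranges overlapped too (log2 fold change 0.14, SE 0.0809, edgeR adjusted p = 0.312). Nr4a1 (ENSMUSG00000023034) lies at 101254269 to 101274795 on the plus strand of chromosome 15 and Nr4a2 (ENSMUSG00000026826) at 57106830 to 57124003 on the minus strand of chromosome 2.

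Egr2, a zinc finger factor tied to anergy, stood at 58.7, 59.9 and 57.3 CPM with Fc, against 91.6, 89.8 and 80 CPM with DEL-1-Fc. The Fc libraries lay within 3 CPM of each other and all DEL-1-Fc libraries lay above them. The mean was 1.48-fold higher, at 87.1 ± 6.22 CPM against 58.6 ± 1.26 CPM in Fc (n = 3, SD; log2 fold change 0.57, SE 0.0685, edgeR adjusted p = 0.000983). Without DEL-1-Fc replicate 1 it was 0.53 (edgeR adjusted p = 0.000135). Egr2 (ENSMUSG00000037868) lies at 67535475 to 67542188 on the plus strand of chromosome 10.

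Egr3, its close paralog, stood at 50.7, 57.9 and 46.6 CPM with Fc, against 84.9, 102.7 and 69.9 CPM with DEL-1-Fc. The groups did not overlap, but the DEL-1-Fc libraries were spread more widely than for Egr2. The mean was 1.66-fold higher, at 85.8 ± 16.5 CPM against 51.7 ± 5.76 CPM in Fc (n = 3, SD; log2 fold change 0.73, SE 0.141, edgeR adjusted p = 0.0126). Egr3 no longer passed when 1 of 3 libraries was left out, and 2 members were then called. Its edgeR values were 0.71 (adjusted p = 0.0614) without Fc replicate 1 and 0.66 (adjusted p = 0.0511) without Fc replicate 3. They were 0.74 (adjusted p = 0.125) without DEL-1-Fc replicate 1. The direction held in all 15 alternatives, at 0.58 to 0.86, over which the edgeR, limma or DESeq2 adjusted p ranged from 8.32e-06 to 0.125. Egr3 (ENSMUSG00000033730) lies at 70077203 to 70082614 on the plus strand of chromosome 14. Egr2 and Egr3 shared 0.477% and 0.588% of the 31-base words of their longest transcripts with other genes.

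Egr1, the first EGR factor induced by many mitogens, stood at 177.8, 181.8 and 158 CPM with Fc, against 178.4, 200.9 and 152.3 CPM with DEL-1-Fc. The Fc range lay inside the DEL-1-Fc range. The log2 fold change was 0.038 (SE 0.102, edgeR adjusted p = 0.849), and it took the other sign without Fc replicate 3 or DEL-1-Fc replicate 2. Egr1 (ENSMUSG00000038418) lies at 34859823 to 34864984 on the plus strand of chromosome 18. Egr4, the remaining paralog and not a member, held 1.23 ± 0.21 CPM with Fc and 1.94 ± 0.284 CPM with DEL-1-Fc (n = 3, SD). It did not pass (log2 fold change 0.65, SE 0.189, edgeR adjusted p = 0.0565), but passed with DESeq2 (adjusted p = 0.0453) and with library sizes alone (edgeR adjusted p = 0.0471).

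Neither NAB corepressor passed the test. Nab2 stood at 172.1, 169.7 and 155.2 CPM with Fc, against 155.6, 152.3 and 134.2 CPM with DEL-1-Fc. DEL-1-Fc replicate 1 lay just above the lowest Fc library, and the other 2 lay below all Fc libraries (log2 fold change -0.17, SE 0.0752, edgeR adjusted p = 0.188). Nab1 stood at 74.1, 72.4 and 71.4 CPM with Fc, against 71.8, 68.8 and 71.8 CPM with DEL-1-Fc, and the ranges overlapped (-0.038, SE 0.0564, adjusted p = 0.712 by edgeR). Nab1 (ENSMUSG00000002881) lies at 52457294 to 52500679 on the minus strand of chromosome 1 and Nab2 (ENSMUSG00000025402) at 127660918 to 127668568 on the minus strand of chromosome 10.

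Nab2 is the member whose counts are least certain. It overlaps 3 genes on the other strand: 1050 exon bases (35.7% of its own) with the antisense RNA Gm16229, 151 with Nemp1 and 40 with Stat6. No source used here gives the strand setting of the counting, so reads of such pairs cannot be told apart. Gm16229 itself held 0.511 ± 0.0538 CPM with Fc and 0.511 ± 0.0831 CPM with DEL-1-Fc (n = 3, SD). Nemp1, a nuclear envelope protein gene, held 115.4 ± 0.453 CPM with Fc and 96.1 ± 11.4 CPM with DEL-1-Fc (n = 3, SD; log2 fold change -0.26, edgeR adjusted p = 0.0811). Nemp1 passed without DEL-1-Fc replicate 1 (-0.17, edgeR adjusted p = 0.0202), with no filter (edgeR adjusted p = 0.0418) and with DESeq2 (adjusted p = 0.0397). Stat6, the IL-4 signal transducer, had means of 364.6 CPM with Fc and 355.1 CPM with DEL-1-Fc (-0.038, edgeR adjusted p = 0.723). No other member overlaps an annotated gene. Matched on both strands, Nab2 shared 32.7% of the 31-base words of its longest transcript with other genes, and Nab1 6.98%. The share of Nab2 can include its 3 overlaps above.

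**Figure D2:**
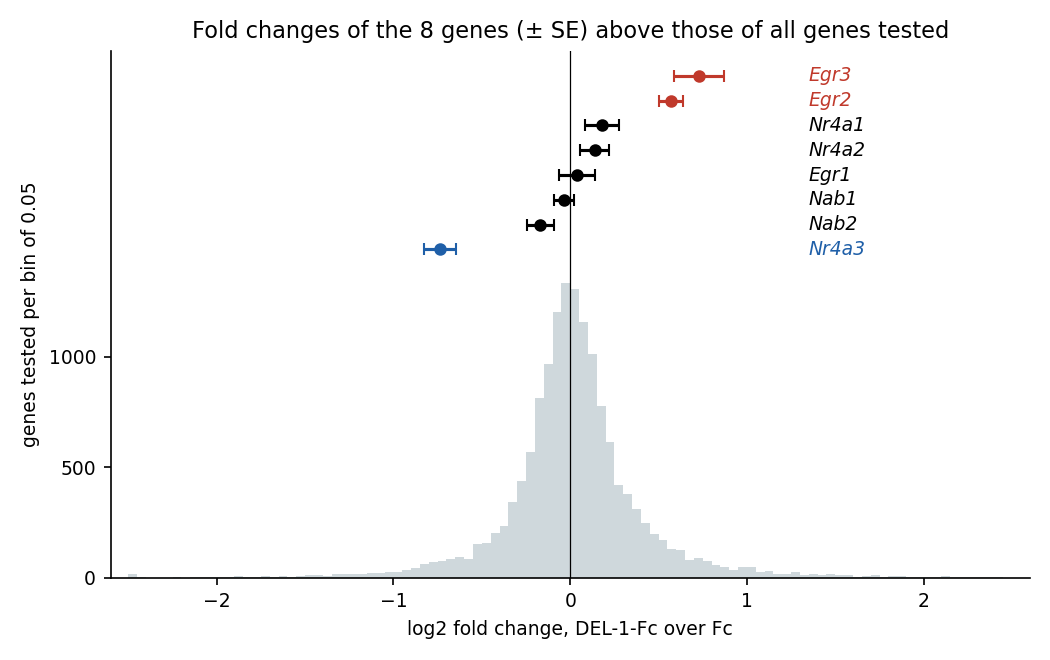
Log2 fold change of DEL-1-Fc over Fc (horizontal axis) for the 8 genes, as points with SE bars, above a histogram of the same for the 14928 genes tested, with values beyond 2.5 drawn at the edge. Egr3 (0.73) and Egr2 (0.57) lie on the right and Nr4a3 (-0.74) on the left, while the other 5 lie between -0.17 and 0.18.

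To compare genes with each other, levels were expressed as TPM, in which counts are divided by the gene's exon length before each library is scaled to a fixed total. In Fc, Nr4a3 (640.8 ± 24 TPM) and Nr4a1 (636.6 ± 40.8 TPM) were the highest and their ranges overlapped. They ranked 201 and 208 of 14757 genes. In DEL-1-Fc, Nr4a1 stood at 717.2 ± 75.4 TPM and Nr4a3 at 384.3 ± 64.3 TPM (SD, n = 3), with ranges that no longer overlapped, at ranks 172 and 419. Nab2 came next in both groups, at 190 ± 11.2 TPM in Fc and 168.3 ± 12.9 TPM in DEL-1-Fc. Egr1 followed at 129.8 ± 10.1 and 133.1 ± 21.7 TPM, and in DEL-1-Fc its range overlapped that of Nab2.

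The remaining members lay lower and close together. In Fc, Nr4a2 (60.9 ± 5.56 TPM), Nab1 (59.8 ± 1.34 TPM) and Egr2 (58.2 ± 1.44 TPM) could not be ordered, since each overlapped its neighbour. Egr3 was the lowest at 39.6 ± 4.5 TPM (SD, n = 3), below all of them. In DEL-1-Fc, Egr2 (86.1 ± 6.21 TPM) lay below Egr1 and above Nr4a2 and Nab1 in every library, while its lowest value, 80.8 TPM, was passed by the highest of Egr3, 82 TPM. Nr4a2 (66.8 ± 6.7 TPM), Egr3 (65.7 ± 14.5 TPM) and Nab1 (58 ± 2.66 TPM) again overlapped their neighbours.

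The shares of the members within each family are given as a description of the libraries, with no test. They depend on each other, so a share can move without a change in its own gene. Nr4a1 and Egr1, whose shares differ below, did not themselves pass the test. Nr4a3 made up 46.9%, 48% and 48.7% of the Nr4a sum with Fc, against 28.6%, 34.2% and 35.7% with DEL-1-Fc. Nr4a1 made up 46.8% to 48.2% in Fc and 58.5% to 65.8% in DEL-1-Fc. Nr4a2 remained the small part, at 4.31% to 4.86% and 5.6% to 5.86%. The Nr4a sum measured 1338 ± 67.6 TPM in Fc and 1168 ± 120 TPM in DEL-1-Fc (SD, n = 3), and its groups overlapped. With the longest transcript as gene length, Nr4a1 made up 54.2% and Nr4a3 41.6% of the sum in Fc, so their order there depends on the length used.

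In the Egr family, Egr1 made up 57.9%, 56.9% and 56.2% of the sum with Fc, against 46.3%, 47.4% and 46.3% with DEL-1-Fc. Egr2 went from 25.6 ± 1.16% to 30.5 ± 2.21% and Egr3 from 17.4 ± 0.927% to 22.9 ± 1.59% (SD, n = 3), with no overlap for either. The Egr sum was 210.5 to 241 TPM in Fc and 251.7 to 332.6 TPM in DEL-1-Fc. Set against the sum of their corepressors Nab1 and Nab2, it amounted to 0.894, 0.947 and 0.893 with Fc, against 1.22, 1.38 and 1.16 with DEL-1-Fc. With the counts as given, the ratio was under 1 in each Fc library and over 1 in each DEL-1-Fc library. Most of the Nab sum is Nab2, whose counts are uncertain through its overlaps with genes on the other strand. On which side of 1 the ratio lies is therefore uncertain too. Nab2 supplied 76.1 ± 0.755% of the Nab sum in Fc and 74.3 ± 1.78% in DEL-1-Fc.

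**Figure D3:**
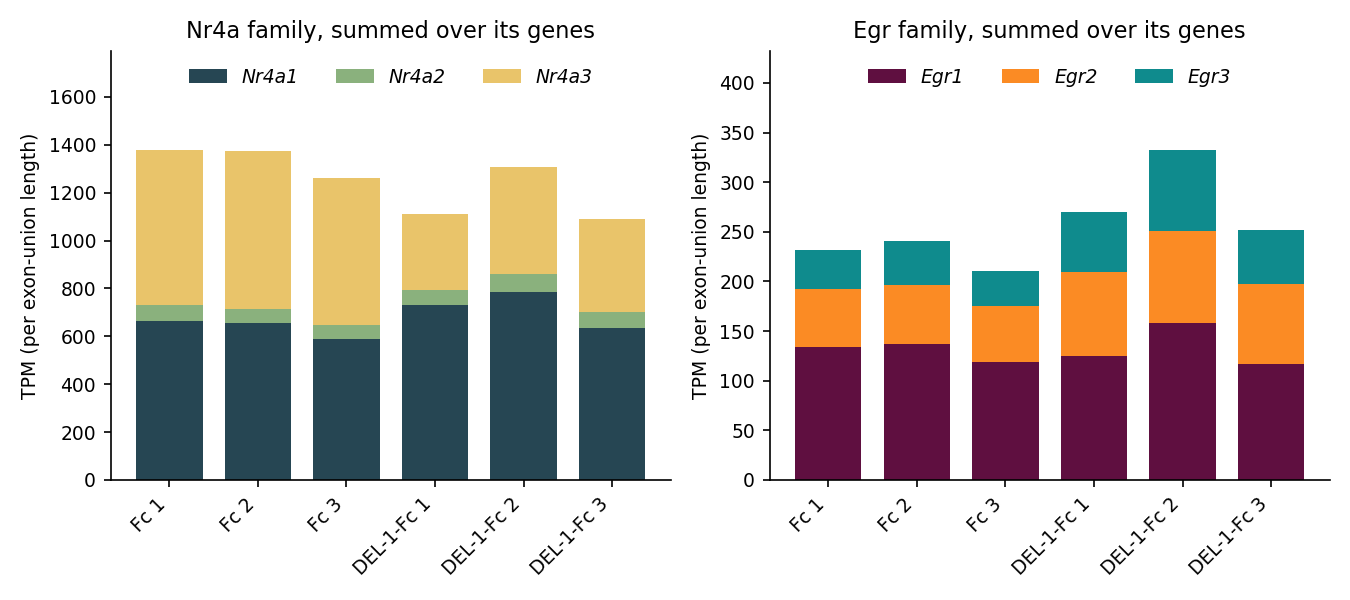
TPM of the Nr4a genes (left) and Egr genes (right), stacked, in each of the 6 libraries; bars start at 0. The Nr4a3 part averages 47.9% of the Nr4a sum in Fc and 32.8% in DEL-1-Fc, and the Egr1 part 57% and 46.6% of the Egr sum.

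The genes whose pattern over the 6 libraries was most like that of each member were found from the root mean square (RMS) difference of their centred log2 CPM, among 9124 genes with a mean of at least 5 CPM. Those nearest to Nr4a3 were Notch2, a Notch receptor (RMS 0.0265), Cblb, an E3 ubiquitin ligase that restrains T cell activation (0.0389), and Map3k20, a stress-activated kinase (0.047). The median over the genes compared with Nr4a3 was 0.393. Among the nearest to Egr2 were Tns1, a focal adhesion protein (0.0306), and Nipal1 (0.0341), with a median of 0.308. Nearest to Egr3 were Cacnb1, a calcium channel subunit (0.0634), Arsb, a lysosomal sulfatase (0.0766), and Slc25a23, a mitochondrial carrier (0.1), with a median of 0.419. Among the members themselves, Egr2 and Egr3 differed by an RMS of 0.158 and Nr4a1 and Nr4a2 by 0.0845. Nearness did not follow family throughout. Nr4a1 and Egr1 differed by 0.0991, less than Egr2 and Egr3, while Nr4a1 and Nr4a3 differed by 0.484 and Egr1 and Egr3 by 0.35.

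For the 5 members that were not called, the nearest genes were Chn2, Rara and Ppp1r9b for Nr4a1 (RMS 0.0302 to 0.0353), Dph1, Rfxank and Rsad1 for Nr4a2 (0.0301 to 0.0436), and Ripor1, Limk1 and Cpne2 for Egr1 (0.018 to 0.0476). Cyb5r4, Dhx30 and Arpc5l were nearest to Nab1 (0.0118 to 0.0142) and Smo, Trib1 and Ino80e to Nab2 (0.0128 to 0.0188). Without DEL-1-Fc replicate 1, Trib1 (edgeR adjusted p = 0.0484) and Ino80e (edgeR adjusted p = 0.0355) were called lower. Since all profiles share the same 6 libraries, nearness describes these libraries.

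The 5 gene lists that follow were drawn up with earlier results of these data known, so their directions are not independent evidence. Of 36 other immediate-early genes tested, 9 fell, 4 rose and 23 did not pass, which is 36.1% called against 12.6% of all genes, with a median log2 fold change of -0.14. Atf3, a stress-induced factor, fell to 19.7 ± 3.74 CPM from 83.3 ± 4.67 CPM (n = 3, SD; -2.08, SE 0.125), and Ccn1, a matricellular integrin ligand (-1.42, SE 0.133), Klf6, a Krüppel-like factor (-0.60, SE 0.0581), and Sik1, a salt-inducible kinase (-0.60, SE 0.0614), also fell. Klf2, a factor of quiescent and recirculating T cells, rose (1.56, SE 0.209), as did Btg2, an antiproliferative gene (0.46, SE 0.082). Npas4, a calcium-dependent factor known from neurons, rose too (0.90, SE 0.178), but did not pass when any one Fc replicate was left out (edgeR adjusted p = 0.061, 0.0657 and 0.0608). Fos (-0.26, edgeR adjusted p = 0.0709) and Junb (-0.32, edgeR adjusted p = 0.0839), partners in AP-1, did not pass. Without DEL-1-Fc replicate 1 both passed, Fos at -0.26 (edgeR adjusted p = 0.0429) and Junb at -0.43 (edgeR adjusted p = 0.00175). Both also passed with DESeq2 (adjusted p = 0.0364 and 0.0276), and Junb with no filter (edgeR adjusted p = 0.0497). Leaving out Fc replicate 1, 2 or 3 gave 7, 6 or 7 calls, and leaving out DEL-1-Fc replicate 1 gave 22.

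Of 32 genes that carry or restrain calcium and ERK signals to these promoters, 2 rose, 3 fell and 27 did not pass (15.6% called against 12.6%, median -0.047). These counts mix genes that pass the signal on with genes that oppose it. Ppp3cc, a catalytic subunit of calcineurin, rose to 63.2 ± 2.42 CPM from 47.3 ± 2.8 CPM (n = 3, SD; log2 fold change 0.42, SE 0.0674). Hdac7, the deacetylase that represses Nr4a1 through MEF2 in thymocytes, fell (-0.38, SE 0.0795), as did Sos1, a Ras activator (-0.47, SE 0.099), and Map2k1, which encodes the ERK kinase MEK1 (-0.31, SE 0.068). Mef2d (-0.088) and Nfatc1 (-0.23) did not pass, though Nfatc1 did without DEL-1-Fc replicate 2 (-0.33, edgeR adjusted p = 0.0357). Leaving out Fc replicate 1, 2 or 3 gave 2, 1 or 3 calls, and leaving out DEL-1-Fc replicate 1 gave 10. The calls of Sos1 and Hdac7 were lost without Fc replicate 1 (adjusted p = 0.0677 and 0.0902) or 2 (0.0722 and 0.0768), and that of Map2k1 without Fc replicate 2 (0.0984) or 3 (0.0996), each by edgeR.

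Of 25 tested genes tied to NR4A factors in T cells, 9 fell and 4 rose (52% called against 12.6%; median -0.14). The fallers included Tigit, an inhibitory receptor (log2 fold change -1.06, SE 0.0735), Runx3, a factor of the Th1 and cytotoxic fates (-0.89, SE 0.0764), and Ifng (-1.49, SE 0.147). Bcl6, the repressor that directs the follicular helper fate, rose to 9.89 ± 1.47 CPM from 5.35 ± 0.451 CPM (n = 3, SD; 0.89, SE 0.131). Irf4, an activation-graded factor that is also on the immediate-early list, fell (-0.50, SE 0.109), but did not pass when any one Fc replicate was left out (edgeR adjusted p = 0.0782, 0.0772 and 0.0634). Foxp3 rose (0.54, SE 0.116), but did not pass when 1 of 3 libraries was left out. By edgeR it stood at 0.46 (adjusted p = 0.0873) without Fc replicate 1 and 0.52 (adjusted p = 0.0753) without Fc replicate 3. Without DEL-1-Fc replicate 1 it stood at 0.55 (adjusted p = 0.0928). Ikzf2, which encodes Helios, did not pass (-0.10). Leaving out Fc replicate 1, 2 or 3 gave 7, 8 or 8 calls.

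Of 24 tested genes tied to EGR2 or EGR3 in T cells, 11 rose, 6 fell and 7 did not pass (70.8% called against 12.6%; median 0.073). Ccl1, a chemokine, rose to 42.5 ± 8.48 CPM from 9.87 ± 0.209 CPM (n = 3, SD; log2 fold change 2.10, SE 0.137), Crtam, an adhesion receptor of activated T cells, to 44.2 ± 2.19 CPM from 22.7 ± 0.259 CPM (0.96, SE 0.0653). Also higher were Nrp1, a neuropilin, by 0.49 (SE 0.066), and Dgka, a kinase that removes the second messenger diacylglycerol, by 0.44 (SE 0.0626). Cdkn1a, the cell cycle inhibitor p21, fell (-1.09, SE 0.0814), as did Cblb (-0.81, SE 0.0893), Lag3, an inhibitory receptor (-0.65, SE 0.117), and Fasl, a death ligand (-0.47, SE 0.0709). Leaving out any one Fc replicate gave 11 calls. Bcl6, Lag3 and Il2, 3 called genes, are on this list and on the NR4A-linked list, so both counts hold them. Bcl6 rose, while Lag3 and Il2 fell. Il2 stood at -0.39 (SE 0.0954, edgeR adjusted p = 0.0308). Over the alternatives its edgeR, limma or DESeq2 adjusted p reached 0.146.

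Of 21 tested cofactors of NR4A and NAB proteins, 0 rose and 3 fell by edgeR (14.3% called against 12.6%; median -0.10). They were Gatad2a (-0.31, SE 0.0667) and Mta1 (-0.37, SE 0.0921), which encode NuRD subunits, and Kdm1a, a histone demethylase (-0.23, SE 0.0578). Rcor1, its corepressor partner (-0.23), and Chd4, the NuRD helicase (-0.17), did not pass. Leaving out DEL-1-Fc replicate 1 or 2 brought Rcor1 to -0.20 (edgeR adjusted p = 0.0432) or -0.30 (edgeR adjusted p = 0.0168), both past the threshold. Rcor1 passed with no filter (edgeR adjusted p = 0.0425) and by DESeq2 (adjusted p = 0.0275) too. DESeq2 called 6 of the 21, all lower, and 2429 of all 14928 genes (1187 higher and 1242 lower). Leaving out Fc replicate 1, 2 or 3 gave 0, 0 or 1 calls by edgeR, and leaving out DEL-1-Fc replicate 1, 2 or 3 gave 5, 5 or 1. Mta1 lost its call without any one Fc replicate (adjusted p = 0.131, 0.111 and 0.0791), and so did Kdm1a (0.158, 0.0728 and 0.163). Kdm1a also lost it without DEL-1-Fc replicate 2 (0.0563) or 3 (0.0957) and with library sizes alone (0.058). Gatad2a lost it without Fc replicate 1 (0.0981), Fc replicate 2 (0.0912) or DEL-1-Fc replicate 3 (0.0594), each by edgeR.

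**Figure D4:**
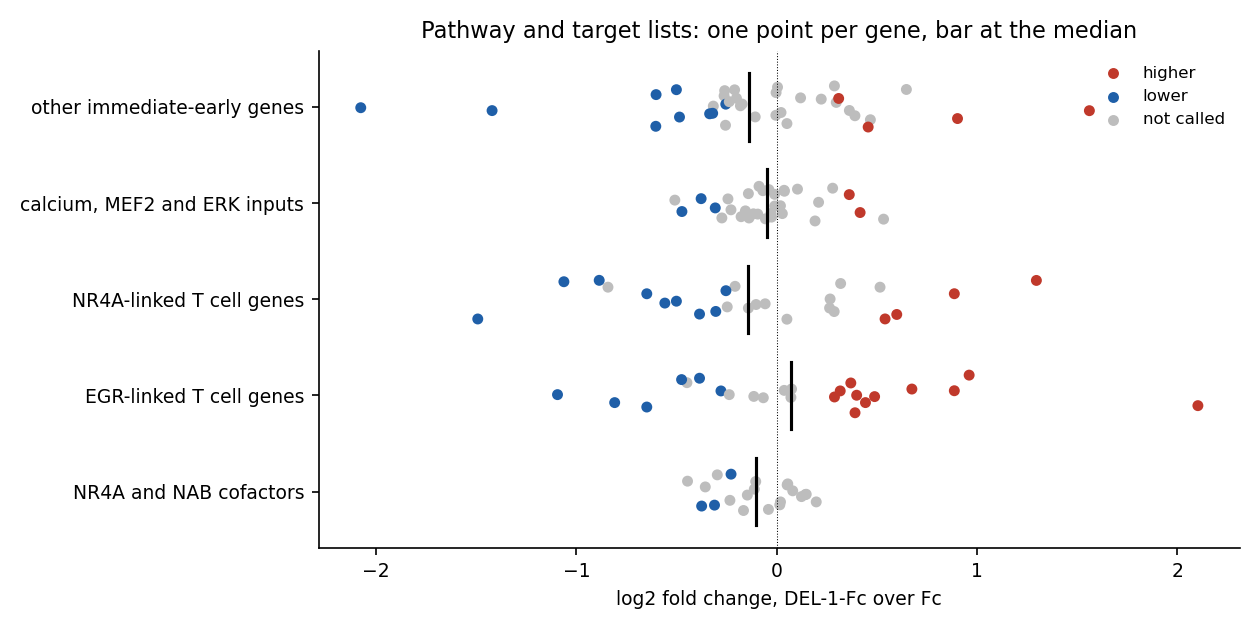
Log2 fold change of DEL-1-Fc over Fc (horizontal axis) for the tested genes of the 5 lists, 1 point per gene, with a bar at each median; red is called higher, blue called lower and grey not called. The list medians lie between -0.14 and 0.073, and the EGR-linked genes show called points on both sides, 11 higher and 6 lower.

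**Figure D5:**
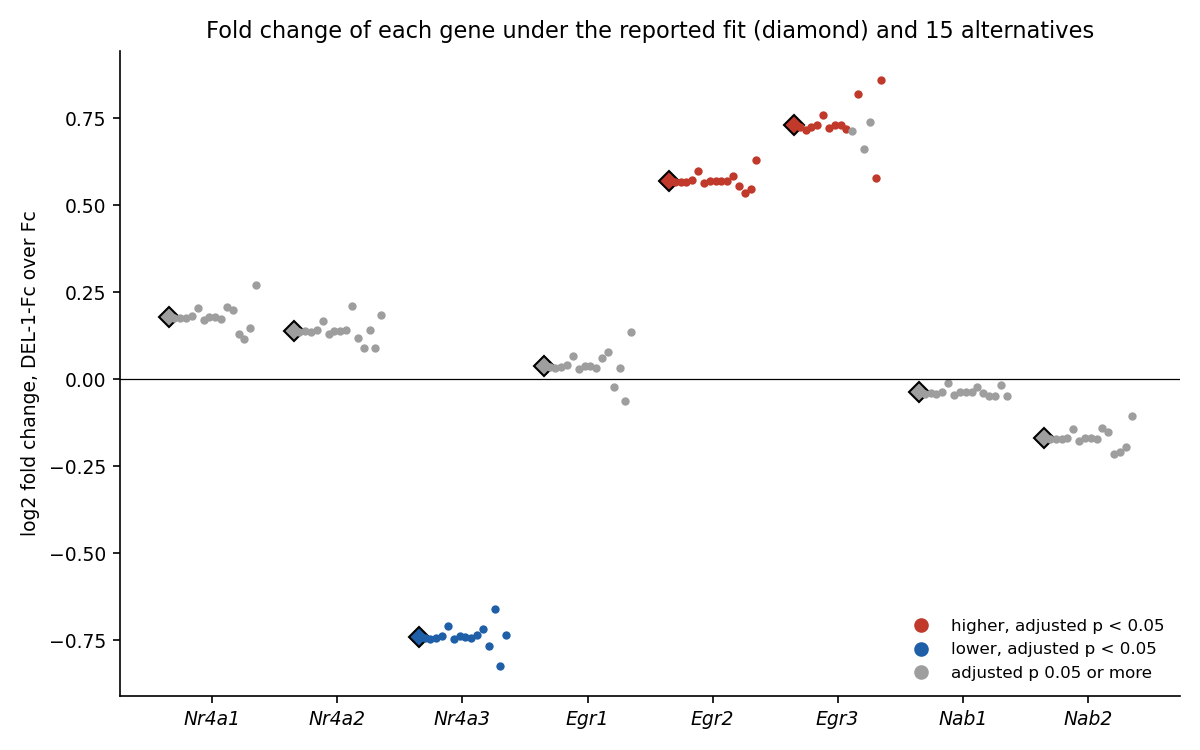
Log2 fold change of the 8 genes (vertical axis) under the reported fit, as a diamond, and 15 alternatives, as points; colour shows whether the adjusted p was under 0.05. Nr4a3 (-0.83 to -0.66) and Egr2 (0.53 to 0.63) pass in each, Egr3 has 3 grey points, and Egr1 has points on both sides of 0.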

How the data were processed

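PolyA RNA of 3 Fc and 3 DEL-1-Fc samples was made into libraries following BGI's protocols, per the labels' protocols. The authors deposited 1 table of raw gene counts for each library, made with STAR (no version given) and HTSeq 0.6.0 on GRCm38 (mm10), per the submitters' processing notes. The sources used here do not give the annotation release, the strand setting or how multi-mapping reads were treated. Of 39179 identifiers, 37693 matched GENCODE M21 (GRCm38), the source of symbols, coordinates and exon lengths.

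Groups came from the sample titles. Counts were tested with edgeR 4.0.16 in R 4.3.3: filterByExpr (minimum count 10, minimum total 15) left 14928 genes, libraries were scaled by TMM, and p-values of the robust quasi-likelihood test were adjusted by Benjamini-Hochberg over all genes kept, with calls at 0.05. Each SE was taken as the size of the log2 fold change (DEL-1-Fc minus Fc) over √F. Patterns were compared on log2 CPM with a prior count of 2. A count of 3, the limit that a count of 0 allows, is at most 0.0914 CPM in any library, which covers counting error only. Replicates differed by at least 19.7 chi-square units per degree of freedom. Alternatives were DESeq2 1.42.0, limma-voom (limma 3.58.1), RLE, upper-quartile or no scaling factors, 2 other filters, no robust dispersion, a replicate block, each library left out, and another gene length for TPM.

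The members and the lists were chosen with earlier results of these data known, so no list is independent evidence of its direction. Of 188 list and marker symbols, 1 was not matched. The text names the members, the 4 genes with the smallest p of each list, the 3 genes most like each member, genes that overlap a member, and Foxp3; 1 of the genes most like a member is not reported here. Egr4, Npas4, Klf2, Btg2, Irf4, Fos, Junb, Dgka, Nrp1, Lag3, Fasl, Mef2d, Nfatc1, Chd4, Ikzf2 and Il2 were named after their values were seen. So were Jun, Havcr2, Ctla4 and Pdcd1.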

Additional observations from a re-analysis of the deposited data

How the results depend on the processing

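Nr4a3 stayed lower and Egr2 higher, both past the threshold, in all 15 alternatives, while Nr4a1, Nr4a2, Nab1 and Nab2 kept their direction and did not pass in any. Members called numbered 2 to 3 with 1 library left out. The genes called over the whole table numbered 901 to 3003 with 1 library left out, and 1884 with all. Over the same omissions the calls ranged from 6 to 22 for other immediate-early genes, 1 to 10 for calcium, MEF2 and ERK inputs, 7 to 16 for NR4A-linked genes, 11 to 20 for EGR-linked genes and 0 to 5 for cofactors, of which DESeq2 called 6. The count of 3003 came without DEL-1-Fc replicate 1.

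Deviations of same-numbered libraries from their group means correlated by 0.0163, 0.0885 and 0.0425 over 14928 genes. Between libraries of different number they correlated by -0.0913 to 0.0382. DEL-1-Fc replicates 2 and 3 correlated best with the Fc library of their own number, and replicate 1 with Fc replicate 3 (0.0382). Correlations this weak cannot decide whether the replicate numbers pair the libraries. With the replicate block 1510 genes were called, and of the members Nr4a3, Egr2 and Egr3 again (Egr3 0.72, adjusted p = 0.00333), while the cofactor Kdm1a no longer passed (adjusted p = 0.0564).

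Signs changed for values near 0. With 1 library left out, Egr1 ranged from -0.062 (DEL-1-Fc replicate 2) to 0.14 and was -0.021 without Fc replicate 3. Ripor1 ranged from -0.088 (DEL-1-Fc replicate 2) to 0.13 and was -0.026 without Fc replicate 3, and Limk1 ranged from -0.061 (DEL-1-Fc replicate 2) to 0.14. Arpc5l was 0.00058 with library sizes alone. Gm16229, at 0.511 CPM, was -0.00139 with DESeq2, -0.0011 with RLE factors, -0.00396 with no filter and -0.00538 with the replicate block. It was -0.074, -0.00374 and -0.13 without Fc replicate 2, DEL-1-Fc replicate 1 and DEL-1-Fc replicate 3, and 0.13 without DEL-1-Fc replicate 2. The cause was not tested.

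With the longest transcript as gene length, all shares kept the direction of their difference. Nr4a1 made up 54.2% of the Nr4a sum in Fc and 67.4% in DEL-1-Fc, Nr4a3 41.6% and 27.4%, and Nr4a2 5.2% in DEL-1-Fc. Egr1 made up 53.9% of the Egr sum in Fc and 43.5% in DEL-1-Fc, and in Fc Egr2 27.8%, Egr3 18.4% and Nab2 77.4% of their sums. The Nr4a sum was 1205 TPM in Fc, the Egr sum 179.7 and 227 TPM in Fc and DEL-1-Fc, the Nab sum 208.7 and 188.3 TPM, and the Egr to Nab ratio 0.861 in Fc. Under this length Nr4a1 was above Nr4a3 in both groups.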
